A study of Mus musculus with 18 samples.

Results

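The genes examined here were the solute carriers of the Slc16a, Slc22a and Slco families, chosen by name, with Slc22a17, whose product is a lipocalin receptor, left out. They were 53 of the 55401 genes in the tables: 14 Slc16a, 24 Slc22a and 15 Slco genes. They were followed in 18 pools of thick ascending limb (TAL) dissected from kidneys of adult male mice labelled C57BL/6J, each pool from another animal. The 4 groups crossed a segment, cortical (CTAL) or medullary (MTAL), with a genotype. Conditional knock-outs (cKO) carried Cldn10 fl/fl alleles and a Ksp-Cre transgene, which acts along the distal nephron and not in TAL alone. The controls (WT) were littermates with the same floxed alleles and no Cre. There were 5 pools of WT CTAL, 5 of cKO CTAL, 5 of WT MTAL and 3 of cKO MTAL, the last from kidneys with calcium deposits in the outer medulla.

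Members of the Slc16a family (monocarboxylate transporters, MCT) carry lactate, pyruvate and ketone bodies together with protons, and some carry thyroid hormone, aromatic amino acids, creatine or carnitine instead. The Slc22a family holds the organic cation (OCT), carnitine and zwitterion (OCTN), and organic anion and urate transporters (OAT, URAT1). The Slco family (OATP) carries prostaglandins, bile acids, thyroid hormones and steroid conjugates. Many of these proteins sit in the proximal tubule, where they secrete drugs and metabolites and recover urate and carnitine. Of the 53 genes, 20 were listed as proximal tubule genes, whose RNA in a TAL pool also reports proximal tubule fragments carried over in dissection.

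The promoter windows of Slco2a1, the prostaglandin transporter, and of Slc22a12, the urate transporter URAT1, are shown because the first gene had the lowest levels in WT MTAL of all groups with no overlap, and the second is a proximal tubule gene that rose in cKO MTAL. Each holds the 250 bases before the RefSeq start, at chr9:103008237-103008486 (plus strand) and chr19:6543071-6543320 (minus strand) in GRCm38.p6, the build also called mm10. Capitals mark the TATA box letters TATAAA and the GC box letters GGGCGG, searched on both strands. Other motifs searched, GTTAAT (of HNF1), the site AGGTCA (of nuclear receptors) and the E-box CACGTG, had no match in these windows.
Slco2a1: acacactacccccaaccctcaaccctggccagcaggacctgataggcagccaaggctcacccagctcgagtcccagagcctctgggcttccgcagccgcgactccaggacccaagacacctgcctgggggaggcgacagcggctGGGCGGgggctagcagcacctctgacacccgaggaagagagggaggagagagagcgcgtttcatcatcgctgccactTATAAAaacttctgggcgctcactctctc
Slc22a12: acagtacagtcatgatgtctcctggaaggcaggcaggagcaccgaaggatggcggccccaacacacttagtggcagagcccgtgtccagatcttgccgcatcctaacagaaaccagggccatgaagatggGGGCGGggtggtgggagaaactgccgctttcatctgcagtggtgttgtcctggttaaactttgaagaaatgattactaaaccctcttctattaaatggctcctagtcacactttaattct
Of 32851 such windows in the table, 12.4% held TATAAA and 32.7% held GGGCGG, while GTTAAT was in 6.43%, AGGTCA in 14.02% and CACGTG in 6.02%. The Slco2a1 window was 63.2% G and C and the Slc22a12 window 50.8%, against a median of 52.4%. The Slco2a1 window lies inside the gene model of GENCODE vM21 (chr9:102988712-103096002), which begins at an upstream exon. RefSeq promoters were matched for 43 of the 53 genes.

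Total counts ranged from 10824299 to 62339939 per pool. Cldn10, the targeted gene, was 501 ± 83.6 counts scaled to the normalised library size (CPM) in WT CTAL (SD, n = 5) and 173 ± 10.8 CPM in cKO CTAL (n = 5). In MTAL it was 756 ± 59.8 CPM in WT (n = 5) and 215 ± 66.0 CPM in cKO pools (n = 3). It fell 2.92-fold in CTAL (edgeR quasi-likelihood test, adjusted p = 5.57e-06) and 3.37-fold in MTAL (adjusted p = 2.92e-05), and no pool lost it. These values describe the pools and test nothing, since the study kept cKO pools for their low Cldn10 level. The genotype label of WT CTAL replicate 1 reads knock-out while its pool name reads WT, and its Cldn10 level was 446 CPM. In 7 pools, 4 of them WT MTAL and none of them cKO MTAL, Xist exceeded 3 CPM although all mice are labelled male. Among the MTAL pools, Xist above that level was thus found in WT only. The TAL markers Slc12a1 and Umod were high in every group, with means of 13183 to 15515 CPM and 28701 to 50706 CPM.

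The transporters of WT TAL were dominated by Slc16a7, which encodes MCT2, a carrier of lactate and pyruvate. On the TPM scale, which corrects for transcript length and so allows genes of different length to be set side by side, it stood at 305 ± 47.4 in WT CTAL, 295 ± 30.3 in cKO CTAL, 351 ± 59.6 in WT MTAL and 240 ± 15.8 in cKO MTAL. In each group its pools did not overlap those of the gene ranked next. It made up 33.0 to 56.0% of the summed TPM of the 53 genes, with group means of 47.1% in WT CTAL, 43.4% in cKO CTAL, 52.7% in WT MTAL and 35.7% in cKO MTAL. The sum itself ranged from 544 to 750 TPM over all pools.

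Below Slc16a7 the order differed between groups. In WT CTAL, Slc16a5, which encodes MCT6, ranked second at 91.3 ± 26.9 TPM, and its pools did not overlap those of the gene after it. The creatine transporter gene Slc16a12 (43.9 ± 4.20 TPM), Slc22a4 (42.5 ± 4.66 TPM), whose product OCTN1 carries ergothioneine, and Slco3a1 (38.0 ± 7.43 TPM), a prostaglandin carrier, overlapped each other. They were followed by Slc22a5 (24.1 ± 3.84 TPM), which encodes the carnitine transporter OCTN2, Slco4a1 (20.5 ± 2.94 TPM), a thyroid hormone carrier, and Slc16a11 (19.99 ± 5.67 TPM), again with overlap between neighbours. In WT MTAL, Slc22a4 (59.9 ± 4.14 TPM) and Slc16a12 (57.2 ± 9.83 TPM) took the next ranks with overlapping pools, and Slc16a5 came after them at 44.6 ± 3.73 TPM without overlap. In cKO MTAL, Slc16a5 again ranked second at 109 ± 19.99 TPM.

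**Figure D1:**
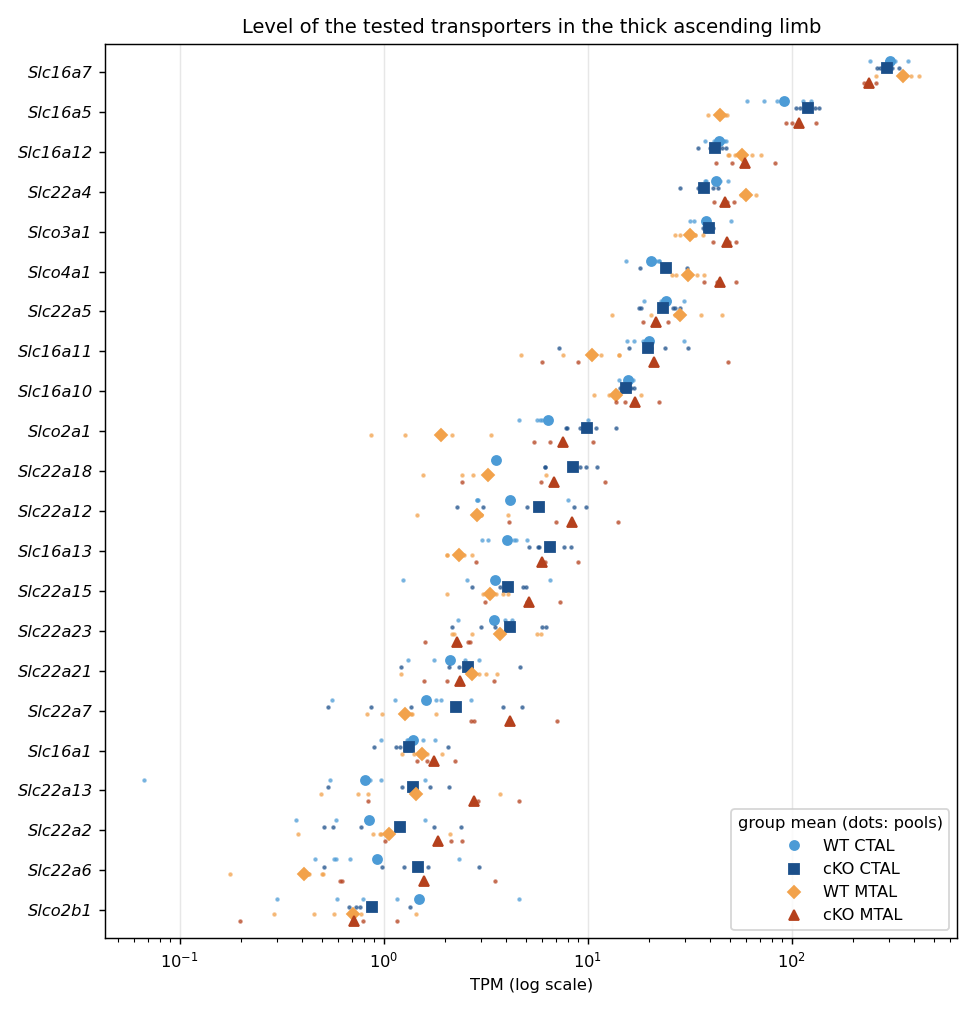
Levels of 22 transporter genes that were tested in at least 1 comparison, in TPM on a log axis, with 1 dot per pool and a larger mark for the mean of each of the 4 groups. Slc16a7 stood highest in every group, between 240 and 351 TPM.

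Of the 53 genes, 9 had a group mean of at least 10 TPM and 30 of at least 1 TPM. A total of 24 genes passed the filter on low counts in at least 1 comparison (a level of 3 CPM had to be reached by 5 pools, and by 3 in comparisons with cKO MTAL): 8 Slc16a, 12 Slc22a and 4 Slco genes. The other 29 were not tested. Slc22a16, Slc22a27, Slco1b2 and Slco6d1 had 0 counts in all 18 pools, and 3 counts over all pools, the upper limit that a count of 0 allows, would be 0.00556 CPM. This limit and all others here cover counting error only.

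The remaining 25 untested genes had counts. The highest single value was 7.999 CPM for Slc22a30 in cKO MTAL replicate 20, a gene whose pools spanned 0.634 to 7.999 CPM in cKO MTAL and 0.293 to 4.39 CPM in WT MTAL. Slco4c1 reached 5.10 CPM, Slc16a9, whose product carries carnitine, 4.93 CPM and Slco1a1 4.68 CPM. The lactate exporter gene Slc16a3 (MCT4) reached 3.38 CPM in cKO MTAL replicate 16. Slc22a19 reached 2.94 CPM, Slc16a4 2.52 CPM, Slc22a3 (OCT3) 1.74 CPM, Slco1a4 1.64 CPM, Slc16a6 1.55 CPM, Slc22a8 (OAT3) 1.47 CPM and Slc22a28 1.35 CPM. Slc22a26, Slc22a22 and Slco1a6 reached 1.09, 1.01 and 1.001 CPM. The other 10 genes, Slc16a8, Slc16a14, Slc22a14, Slc22a20, Slc22a29, Slco1a5, Slco1c1, Slco5a1, Slco6b1 and Slco6c1, stayed below 1 CPM in every pool, Slc16a8 being the highest of them at 0.802 CPM.

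The first question was how the transporters differ between the segments of WT mice. A gene was called where the adjusted p was under 0.05 and the log2 fold change was at least 1 in either direction. In WT MTAL against WT CTAL, 1 of the 18 tested transporters was called, Slco2a1, against 2.32% of all 11650 genes tested. By the adjusted p alone 7 of 18 passed, 3 more and 4 less expressed in MTAL, against 6.87% of all genes. The median log2 fold change was -0.0098 over the transporters and 0.015 over all genes.

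Slco2a1 was 26.7, 26.3, 34.4, 27.8 and 49.7 CPM in WT CTAL replicates 1, 3, 8, 10 and 22, and 13.7, 12.2, 9.21, 8.31 and 5.50 CPM in WT MTAL replicates 11, 13, 15, 17 and 19. The segments did not overlap. It was 3.39-fold less expressed in WT MTAL (log2 fold change -1.76, SE 0.24, adjusted p = 0.000144). Slc16a5, at 121 ± 29.0 CPM in WT CTAL and 64.0 ± 8.44 CPM in WT MTAL, was 1.90-fold less expressed in MTAL (log2 fold change -0.93, SE 0.14, adjusted p = 0.00052). The neighbours Slc16a11 and Slc16a13, whose genes lie 371 bases apart on opposite strands, were 1.88-fold (adjusted p = 0.0339) and 1.73-fold (adjusted p = 0.0459) less expressed in MTAL.

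Slco4a1, Slc22a4 and Slc16a12 were more expressed in WT MTAL. Slco4a1 was 36.6, 51.8, 48.1, 44.2 and 47.1 CPM in WT CTAL replicates 1, 3, 8, 10 and 22 and 79.1, 70.4, 58.8, 63.4 and 74.4 CPM in WT MTAL replicates 11, 13, 15, 17 and 19, so that each MTAL pool lay above each CTAL pool. Its change was 1.51-fold (log2 fold change 0.59, SE 0.11, adjusted p = 0.00256). Slc22a4 was 1.46-fold higher (adjusted p = 0.00338) and Slc16a12 1.25-fold (adjusted p = 0.033). In leave-one-out fits, the adjusted p reached 0.05 or more in 6 of 10 fits for Slc16a11, in 7 of 10 for Slc16a12 and in 8 of 10 for Slc16a13.

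The second question was how these genes differ between cKO and WT pools of MTAL. In cKO MTAL against WT MTAL, 4 of the 21 tested transporters were called, all higher in cKO, against 3.74% of all 12060 genes tested: Slco2a1, Slc16a5, Slc22a7 and Slc22a12. Slc22a7 passed the filter only through the cKO pools, so its direction was set by the filter and its call adds nothing to that count. By the adjusted p alone 7 of 21 passed, with Slco3a1 higher and Slc16a7 and Slc22a4 lower, against 7.01% of all genes. The median log2 fold change was 0.49 over the transporters tested and 0.0012 over all genes, though a gene that reached the filter in the cKO pools alone was bound to raise it. In a pool, fewer cells of a type and less RNA per cell cannot be told apart.

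Slco2a1 was 29.2, 34.0 and 43.8 CPM in cKO MTAL replicates 16, 18 and 20, above all 5 WT MTAL pools and within the range of the CTAL pools. It was 3.77-fold more expressed than in WT MTAL (log2 fold change 1.91, SE 0.26, adjusted p = 0.000389). Slc16a5 was 66.9, 58.7, 53.4, 75.6 and 65.2 CPM in WT MTAL replicates 11, 13, 15, 17 and 19 and 119.7, 126 and 131 CPM in cKO MTAL replicates 16, 18 and 20. The groups did not overlap, and the rise was 2.03-fold (log2 fold change 1.02, SE 0.12, adjusted p = 0.00013). The fold lay at the threshold, and without cKO MTAL replicate 20, WT MTAL replicate 13 or WT MTAL replicate 15 the log2 fold change was 0.996, 0.995 and 0.975.

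Slco3a1 was 80.2, 89.6, 74.7, 87.7 and 101 CPM in the WT MTAL pools and 110.3, 124 and 119 CPM in the cKO MTAL pools, in the same order. All cKO pools were above all WT pools, a rise of 1.41-fold (log2 fold change 0.50, SE 0.12, adjusted p = 0.0197). Without cKO MTAL replicate 20 the adjusted p was 0.0538.

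Slc16a7, the most abundant of the transporters, fell. It was 1421, 1391, 1399, 1304 and 1489.6 CPM in the WT MTAL pools and 854, 786 and 719 CPM in the cKO MTAL pools, with no overlap. The fall was 1.72-fold (log2 fold change -0.78, SE 0.11, adjusted p = 0.00043), and on log2(TPM + 1) limma gave an adjusted p of 0.0978. Slc22a4 also fell, from 105, 77.3, 93.9, 106 and 109.9 CPM in the WT MTAL pools to 71.1, 58.8 and 60.3 CPM in cKO MTAL replicates 16, 18 and 20, again without overlap. Its change was 1.49-fold (log2 fold change -0.58, SE 0.14, adjusted p = 0.0211), and the adjusted p was 0.0626 without cKO MTAL replicate 18, 0.0755 without replicate 20, 0.0514 without WT MTAL replicate 17 and 0.0541 without replicate 19.

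**Figure D2:**
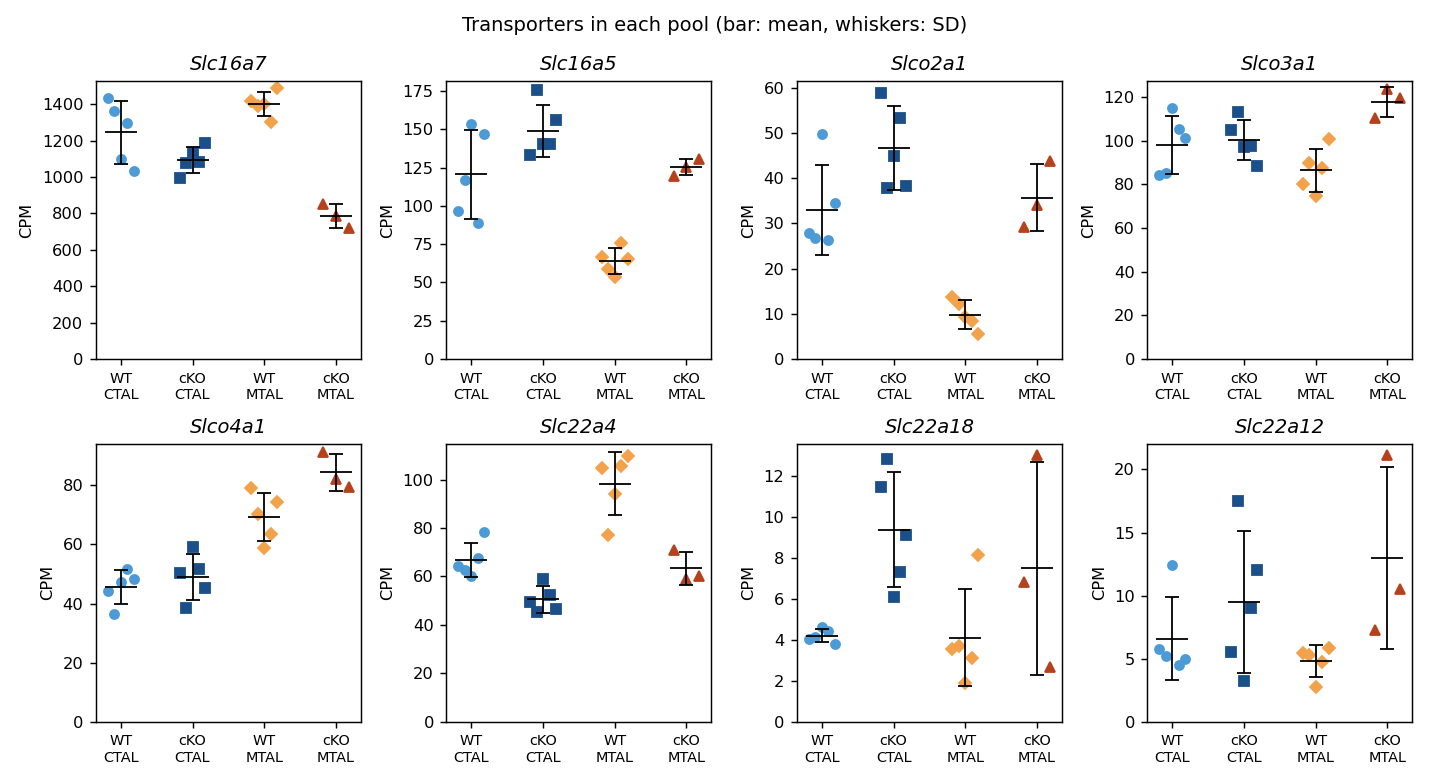
CPM of 8 transporter genes in each of the 18 pools, by group, with the mean and SD of the pools; the axes start at 0. The 5 WT MTAL pools lay below all other pools for Slco2a1, at 5.50 to 13.7 CPM, and the 3 cKO MTAL pools lay below all other pools for Slc16a7, at 719 to 854 CPM.

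Markers of cells other than TAL cells, and genes of injury, also differed between some MTAL pools, and their part in these changes was not tested. The summed level of 7 principal cell markers was 72.4 to 336 CPM in WT MTAL and 119, 118 and 983 CPM in cKO MTAL replicates 16, 18 and 20. None of the 6 that were tested passed, and replicate 20 also had the highest Slco2a1. The intercalated cell gene Atp6v0d2 was called higher in cKO MTAL (log2 fold change 1.86, adjusted p = 0.0381), and the 6 markers of that cell type summed to 19.95 to 112 CPM in WT and 40.3 to 244 CPM in cKO MTAL. The 6 thin limb markers summed to 740 to 994 CPM in WT MTAL and to 670 to 704 CPM in cKO MTAL, without overlap, with Slc14a2 called lower and Cldn4 called higher. The summed level of 10 endothelial markers was 352 to 559 CPM in WT MTAL and 205 to 338 CPM in cKO MTAL, with Cdh5, Emcn and Flt1 called lower. The summed level of 9 genes of tubular injury was 1196 to 1443 CPM in WT MTAL and 2273 to 9226 CPM in cKO MTAL, where Clu, Lcn2, Spp1 and Krt18 were called higher.

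Among transporters that did not pass in MTAL, Slc16a13 was 4.67 ± 0.945 CPM in WT and 10.2 ± 5.92 CPM in cKO pools (log2 fold change 1.18, SE 0.38, adjusted p = 0.0718). It was called in a fit of all 18 pools (adjusted p = 0.00597), in that fit with a term for Xist (0.0255), by the likelihood ratio tests of edgeR (0.0333) and DESeq2 (0.0261), and without cKO MTAL replicate 16 (0.0376). Without cKO MTAL replicate 20 its log2 fold change was 0.61. Slco4a1 was 69.2 ± 8.18 and 84.4 ± 6.19 CPM (adjusted p = 0.125), and Slc16a12 was 154 ± 14.3 and 116 ± 15.4 CPM (adjusted p = 0.0925). Slc22a5 was 61.0 ± 18.8 and 45.3 ± 8.46 CPM (adjusted p = 0.349). Slc16a11 was 10.9 ± 3.66 CPM in WT MTAL and 10.1, 5.97 and 28.3 CPM in the cKO MTAL pools, so that 1 of 3 cKO pools set its mean.

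Among the other tested transporters, the 8 named here passed in none of the comparisons or alternatives. Slc16a10 was the most abundant of them, at 58.8 ± 2.50 CPM in WT CTAL, 52.1 ± 3.27 in cKO CTAL, 53.4 ± 6.22 in WT MTAL and 57.2 ± 14.1 in cKO MTAL. Slc22a23 had group means of 8.53 to 12.6 CPM and Slc22a15 of 8.25 to 10.2 CPM. Slc16a1, which encodes MCT1, had means of 3.79 to 5.06 CPM. Slc22a21, a carnitine transporter gene between Slc22a5 and Slc22a4 and 2790 bases from the latter, had means of 2.66 to 4.30 CPM. Slc22a2, an organic cation transporter gene, had means of 1.45 to 2.86 CPM, Slc22a13 of 1.31 to 4.06 CPM and Slco2b1 of 1.57 to 2.97 CPM. Slc22a13 lies inside Slc22a14 on the same strand, so that reads of the pair may have been split.

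In CTAL, 1 of the 18 tested transporters was called between genotypes, against 0.47% of all 11702 genes tested, and the same gene alone passed by the adjusted p, against 1.22%. The median log2 fold change was -0.076 over the transporters and 0.0026 over all genes. The gene was Slc22a18, an imprinted gene at chr7:143473736-143499334. It was 4.13, 4.42, 3.81, 4.07 and 4.62 CPM in WT CTAL replicates 1, 3, 8, 10 and 22 and 12.8, 6.09, 7.32, 9.15 and 11.5 CPM in cKO CTAL replicates 2, 4, 7, 9 and 21. All cKO pools lay above all WT pools, a rise of 2.22-fold (log2 fold change 1.15, SE 0.21, adjusted p = 0.0151). The adjusted p was 0.0997 without the pools with Xist, 0.189 in a fit of all 18 pools, 0.186 in that fit with a term for Xist and 0.11 with WT CTAL replicate 1, whose label is in doubt, counted as cKO. Other markers differed between the same groups, and their part was not tested: the 9 genes of injury summed to 1522 to 1790 CPM in WT CTAL and to 1907 to 5036 CPM in cKO CTAL without overlap, with Clu called higher (log2 fold change 2.05, adjusted p = 0.00481) and Krt18 passing (0.86, adjusted p = 0.0232). Atp6v0d2 was called higher in cKO CTAL too (1.66, adjusted p = 0.0152). In MTAL Slc22a18 was 3.58, 3.72, 1.91, 3.12 and 8.15 CPM in WT and 6.83, 13.03 and 2.67 CPM in cKO pools, and the groups overlapped (log2 fold change 0.93, SE 0.51, adjusted p = 0.289).

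Slc22a4 was 66.7 ± 7.07 CPM in WT CTAL and 50.5 ± 5.53 CPM in cKO CTAL, and did not pass (log2 fold change -0.41, SE 0.10, adjusted p = 0.0536). Without cKO CTAL replicate 4 its adjusted p was 0.031. Slco2a1 was 33.0 ± 9.92 and 46.6 ± 9.24 CPM (log2 fold change 0.48, adjusted p = 0.273), Slc16a5 121 ± 29.0 and 149.0 ± 17.003 CPM (0.29, adjusted p = 0.426), and Slc16a7 1246 ± 174 and 1096 ± 71.2 CPM (-0.20, adjusted p = 0.456).

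**Figure D3:**
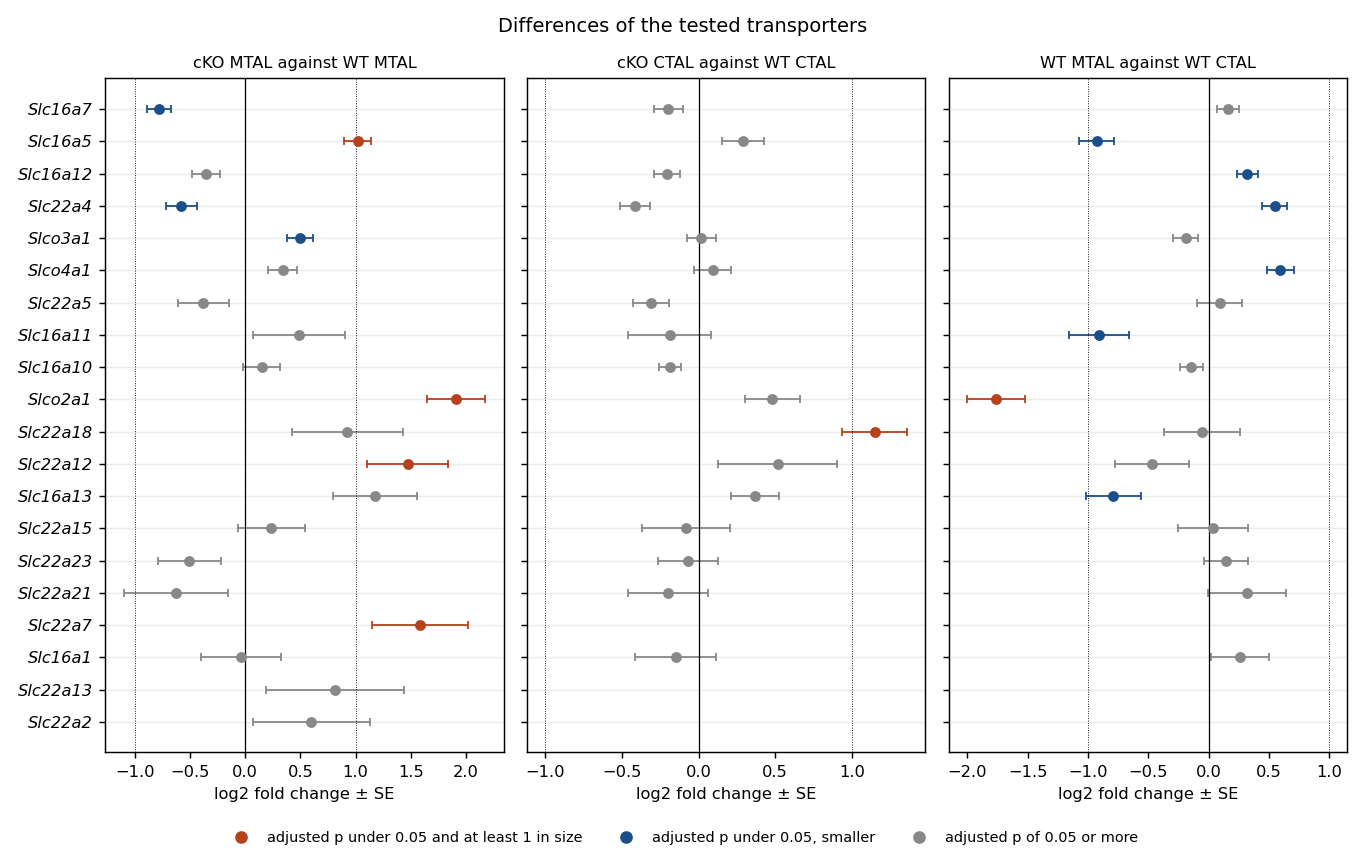
Log2 fold changes with SE (lines) of tested transporters in cKO MTAL against WT MTAL, cKO CTAL against WT CTAL and WT MTAL against WT CTAL; red marks an adjusted p under 0.05 with a log2 fold change of at least 1, blue an adjusted p under 0.05 with a smaller change, and grey the rest. Slco2a1 stood at 1.91 in the first comparison and at -1.76 in the last, which share the WT MTAL pools.

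Whether the genotype effect differs between the segments was tested as an interaction over all 18 pools. None of the 24 tested transporters was called, against 0.23% of all 12586 genes, and none passed by the adjusted p, against 0.286%. At an unadjusted p under 0.05 there were 5 of 24, namely Slc16a5, Slc16a7, Slc16a13, Slco2a1 and Slco3a1. The share of all genes at that cut is not given here, so no conclusion is drawn from this count. The difference of log2 fold changes was 1.41 for Slco2a1 (SE 0.32, adjusted p = 0.0594), -0.60 for Slc16a7 (SE 0.14, adjusted p = 0.0594) and 0.71 for Slc16a5 (SE 0.20, adjusted p = 0.0896). Slco2a1 was called in 3 alternatives: the likelihood ratio tests of edgeR and DESeq2, and the fit without the filter on low counts. It was also called without cKO MTAL replicate 18 (adjusted p = 0.017), WT CTAL replicate 3 (0.0461), WT MTAL replicate 11 (0.0276) or WT MTAL replicate 13 (0.0362). For Slc22a18 the difference was -0.24 (SE 0.55, adjusted p = 0.888), so that its change was not shown to differ between segments.

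Between the segments of cKO mice, none of the 22 tested transporters was called by the quasi-likelihood test or in any alternative, against 0.938% of all 12044 genes. By the adjusted p alone 1 passed, against 1.75%, and 4 had an unadjusted p under 0.05 (Slc16a7, Slc22a4, Slco3a1 and Slco4a1). For the unadjusted cut the share of all genes is not given here, so no conclusion is drawn from that count. The one that passed was Slco4a1, which was 38.5, 59.0, 51.7, 45.3 and 50.4 CPM in cKO CTAL replicates 2, 4, 7, 9 and 21 and 91.3, 82.2 and 79.5 CPM in cKO MTAL replicates 16, 18 and 20. It was 1.81-fold more expressed in MTAL (log2 fold change 0.86, SE 0.14, adjusted p = 0.00893). The 4 two-group comparisons share pools, so a gene's values in them are not independent: Slco2a1, for example, had a log2 fold change of -0.31 between cKO segments (SE 0.19, adjusted p = 0.421).

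The proximal tubule genes of these families fell into a high and a low set. Slc16a10, which encodes a carrier of aromatic amino acids, Slc16a12, Slc22a4 and Slc22a5 each had a group mean of at least 10 TPM, and the other 16 were below it. Of these, 14 reached 1 CPM in at least 1 pool. Their summed level had a median of 17.2 CPM in WT CTAL, 25.9 CPM in cKO CTAL and 19.7 CPM in WT MTAL, and was 21.1, 65.2 and 38.7 CPM in cKO MTAL replicates 16, 18 and 20.

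A list of 28 proximal tubule markers, none of them a transporter of these families, was set beside these genes. Without Ggt1 and Aqp1, which were left out after their values were seen, the summed level of the other 26 ranged from 199 to 556 CPM in WT CTAL, 173 to 725 CPM in cKO CTAL and 161 to 297 CPM in WT MTAL, and was 279, 845 and 633 CPM in cKO MTAL replicates 16, 18 and 20. With all 28 the sums were 570 to 919 CPM in WT CTAL and 650 to 1337 CPM in cKO CTAL. In MTAL they were 343 to 517 CPM in WT and 549 to 1321 CPM in cKO pools. Between WT segments the median sum of all 28 was 679 CPM in CTAL and 483 CPM in MTAL. The 14 low transporters did not follow it there, with medians of 17.2 and 19.7 CPM. In cKO MTAL against WT MTAL, 7 of the 21 tested markers were called higher, Slc34a1, the phosphate transporter of this segment, among them (log2 fold change 2.39). The 7 include Ggt1, and without Ggt1 and Aqp1 there were 6 called higher of 19 tested. In CTAL 0 of 21 were called between genotypes by edgeR, with a median log2 fold change of 0.37. Defining markers were low in all pools: Slc2a2 stood at 0 to 0.888 CPM, Slc5a12 at 0 to 0.943 CPM and Slc5a2 at 0.034 to 3.74 CPM.

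The pool with the highest sum of the 26 markers was WT CTAL replicate 22, cKO CTAL replicate 2, WT MTAL replicate 19 and cKO MTAL replicate 18 in its group. In each group it also had the highest sum of the 14 low transporters, 46.6, 54.5, 21.6 and 65.2 CPM. Of the 14 genes, 12, 8, 5 and 9 were at their highest in that pool, against 2, 0, 2 and 1 of the 4 genes in the high set. Of all 24 tested transporters, 4 peaked in the top marker pool in every group: Slc22a12, Slc22a18, Slco2b1 and Slco3a1. A group held only 5 pools, or 3 in cKO MTAL, so some genes peak in that pool without any link to the markers. The share of all genes that peak there is not given here, and no conclusion is drawn from these counts.

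**Figure D4:**
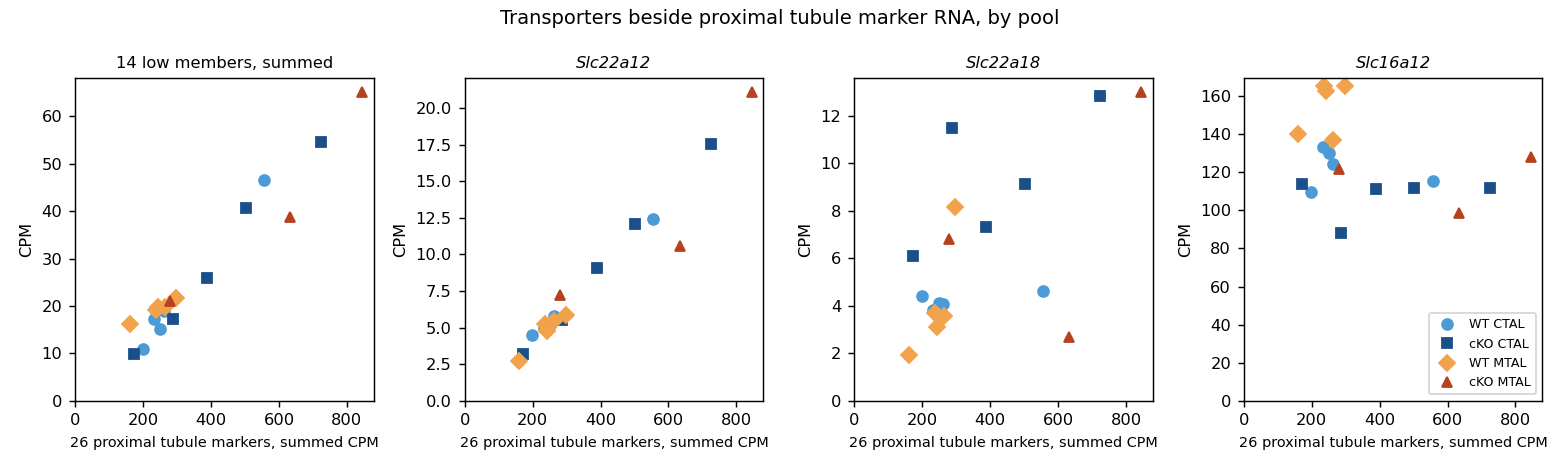
Levels in CPM, 1 dot per pool, against the summed CPM of 26 proximal tubule markers, for the sum of 14 low proximal tubule transporters, Slc22a12, Slc22a18 and Slc16a12. The sum of the 14 reached 65.2 CPM in the cKO MTAL pool with a marker sum of 845 CPM, while Slc16a12 was 128 CPM there and 137 to 166 CPM in the WT MTAL pools.

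Slc22a12 was 5.45, 5.28, 2.72, 4.76 and 5.85 CPM in WT MTAL replicates 11, 13, 15, 17 and 19 and 7.25, 21.1 and 10.55 CPM in cKO MTAL replicates 16, 18 and 20. All cKO pools were above all WT pools, a rise of 2.78-fold (log2 fold change 1.47, SE 0.37, adjusted p = 0.0244). The adjusted p was 0.164 without cKO MTAL replicate 18, the pool with the most proximal tubule marker RNA, 0.0586 without WT MTAL replicate 15 and 0.0568 without replicate 17. Per 100 CPM of the 26 markers, Slc22a12 had a group mean of 2.18 CPM in WT CTAL, 2.18 in cKO CTAL, 1.98 in WT MTAL and 2.25 in cKO MTAL, and all 18 pools lay between 1.67 and 2.60. Per 100 CPM of all 28 markers the pools spread from 0.495 to 1.60. The gene lies at chr19:6535845-6543032 and overlaps Nrxn2 on the opposite strand.

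Slc22a7, which encodes the organic anion transporter OAT2, was 2.35, 2.77, 1.21, 2.49 and 1.73 CPM in the WT MTAL pools and 4.23, 10.3 and 3.9996 CPM in the cKO MTAL pools. The groups did not overlap (2.99-fold, log2 fold change 1.58, SE 0.44, adjusted p = 0.0391), but the gene passed the filter only through the cKO pools and so had to be higher there to be tested. Without any 1 of the cKO pools it was not tested, and without WT MTAL replicate 11, 15, 17 or 19 the adjusted p was 0.058, 0.0935, 0.0702 and 0.0774. Per 100 CPM of the 26 markers its group mean was 0.883 CPM in WT MTAL and 1.12 CPM in cKO MTAL. In cKO MTAL replicate 16, the pool with the lowest marker sums of its group, Slc22a7 and Slc22a12 were above every WT MTAL pool. Its sum of the 26 markers, 279 CPM, lay within the WT MTAL range, and its sum of all 28, 549 CPM, lay above it. The part of proximal tubule RNA in these changes was not tested.

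The other low proximal tubule transporters that were tested did not pass. Slc22a6, which encodes OAT1, was 1.83, 9.92 and 1.68 CPM in cKO MTAL replicates 16, 18 and 20, high only in the pool richest in markers.

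Genes that work with these transporters were described by a list of 61, of which 41 were tested in MTAL. Between genotypes there, Ptges, the prostaglandin E synthase, was called higher (log2 fold change 2.74, adjusted p = 0.0109) and Ppara, a regulator of fatty acid oxidation, lower (-1.14, adjusted p = 0.0234). Ptges passed the filter only through the cKO pools and so had to be higher there to be tested. It was 0.509 to 2.82 CPM in WT MTAL and 2.82, 5.48 and 17.4 CPM in cKO MTAL replicates 16, 18 and 20, the last being the pool with the principal cell sum of 983 CPM. Emb, which encodes embigin, a chaperone of MCT2, rose by 0.92 on the log2 scale (adjusted p = 0.00037), and Slc7a8, an amino acid and thyroid hormone carrier, by 0.89 (adjusted p = 0.00654). Ptger3, a prostaglandin E2 receptor, fell by 0.49 (adjusted p = 0.0403). Emb was 96.1 ± 8.28 CPM in WT MTAL and 175 ± 32.6 CPM in cKO MTAL, opposite to Slc16a7. Bsg, which encodes basigin, the chaperone of MCT1 and MCT4, was 447 ± 53.3 and 419 ± 14.2 CPM and did not pass (adjusted p = 0.858).

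In CTAL 37 of the 61 were tested between genotypes, none was called, and Slc7a8 alone passed by the adjusted p (log2 fold change 0.49, adjusted p = 0.0171). Between the segments of WT mice 38 were tested, and Slc7a5, an amino acid and thyroid hormone carrier, was called higher in MTAL (log2 fold change 1.22, adjusted p = 1.89e-05). Between the same groups Emb was lower in MTAL (log2 fold change -0.9998, adjusted p = 1.99e-06), as was Slc7a8 (-0.95, adjusted p = 0.000416). Between the segments of cKO mice Slc7a5 was again called higher in MTAL (1.19), and in the interaction none of 45 tested was called, with Emb at 0.63 (adjusted p = 0.0594).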

How the data were processed

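Poly-A RNA was measured in 18 pools of TAL tubules by strand-specific paired-end sequencing. The authors trimmed the reads and quantified genes with DRAGEN on mm10 with a GENCODE annotation, and the submitters' notes also name FastQC, Trimmomatic and Picard. They deposited estimated counts per gene, which were rounded to whole numbers here, and TPM per gene, used here for levels between genes and as an alternative. A total of 6.26 to 9.53% of genes per pool had counts with decimals. Whether counting used strand is not given in the sources used here, so overlapping genes are uncertain.

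CPM used library sizes multiplied by TMM factors, and edgeR 4.0.16 in R 4.3.3 gave quasi-likelihood F tests, each comparison on its own groups and the interaction on all pools. Genes tested had reached 3 CPM, before TMM scaling, in 5 pools or more (3 pools in comparisons with cKO MTAL), p-values were Benjamini-Hochberg adjusted over all genes tested, and SE is the log2 fold change over the root of F. Alternatives used DESeq2 1.42.0, limma 3.58.1 on log2(TPM + 1) and log2(TPM + 0.1), other filters, and fits without a pool. The fits were tested on simulated data. Every gene of the 3 families is accounted for in the counts, and the values of 2 tested genes are not reported here; values for each pool went to called genes and to those passing by adjusted p that the text describes. The transporters and gene lists were chosen with earlier results of these data known. WT CTAL replicate 1 was grouped by its pool name. Replicates of a group differed by more than sampling noise.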

Additional observations from a re-analysis of the deposited data

Results flagged for a closer look

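In 66 groups of 5 pools (22 tested transporters in 3 groups), 7 held a pool far from the other 4, where chance gives about 1 in 20, or 3.3. In WT CTAL replicate 22, which had the most proximal tubule marker RNA of its group, Slc22a6 was 7.51 CPM (others 1.46 to 2.26) and Slc22a12 12.4 CPM (others 4.52 to 5.79). In cKO CTAL replicate 2, also first in marker RNA, Slc16a1, which encodes MCT1, was 6.31 CPM (others 2.44 to 3.54) and Slco2b1 4.78 CPM (others 2.08 to 2.85). In WT MTAL replicate 19, again first in its group, Slc22a18 was 8.15 CPM (others 1.91 to 3.72). The part of proximal tubule RNA in these values was not tested.

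The other 2 were in pools that did not lead in marker RNA. Slc16a10 was 57.8 CPM in cKO CTAL replicate 7 (others 50.0 to 51.6), and Slc16a12 was 88.0 CPM in cKO CTAL replicate 21 (others 111 to 114).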

How the results depend on the processing

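No paired analysis was possible because the groups share no replicate numbers. Over the 5 comparisons, 79 of 99 alternative counts of called transporters stayed within 1.5 times of the count reported, and no result changed direction. In cKO MTAL against WT MTAL, 4 were called, 5 by the edgeR and DESeq2 likelihood ratio tests and in a fit of all 18 pools, 3 with no filter, 2 with limma on log2(TPM + 1) and 2 on log2(TPM + 0.1), and 1 to 4 without single replicates (Slco2a1 alone without WT MTAL replicate 15). In cKO CTAL against WT CTAL, 1 was called and 0 in a fit of all 18 pools, with a term for Xist, without the pools with Xist, or with WT CTAL replicate 1 counted as cKO; leaving out single replicates gave 1. In WT MTAL against WT CTAL, 1 was called and 1 to 3 without single replicates (3 without WT CTAL replicate 10). For the interaction, 0 were called, and 1 with the edgeR or DESeq2 likelihood ratio test or with no filter, and 0 to 1 without single replicates. The cause of these shifts was not tested.

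Over all genes, 451 were called in cKO MTAL against WT MTAL (325 higher, 126 lower), 692 by the edgeR likelihood ratio test, 869 with no filter, 807 in a fit of all pools, and 224 or 222 with limma on TPM (200 or 194 higher, 24 or 28 lower), and 259 to 606 without single replicates. In limma the median of all genes moved by 0.19 to 0.21 there and by 0.13 in CTAL, and Slc16a7 (adjusted p = 0.0978 and 0.0986), Slc22a4, Slco3a1, Slc22a7 and Slc22a12 no longer passed. In CTAL 55 were called (30 higher, 25 lower), 19 without the pools with Xist, and 37 or 39 with limma (31 or 32 higher, 6 or 7 lower), and 46 with WT CTAL replicate 1 as cKO (18 higher, 28 lower). Between cKO segments 113 were called, 404 and 388 by the edgeR and DESeq2 likelihood ratio tests, 344 with no filter (275 higher, 69 lower, against 75 and 38), 354 or 359 in fits of all pools, 63 or 54 with limma, 179 with WT CTAL replicate 1 as cKO, and 71 to 515 without single replicates. The interaction gave 29, 251 and 249 by the same likelihood ratio tests, 69 with no filter, 7 or 8 with limma, 18 with a term for Xist, 16 with WT CTAL replicate 1 as cKO, and 13 to 423 without single replicates. The lowest depth, 10824299 counts in WT CTAL replicate 3, and the 3 cKO MTAL pools limit the precision for genes near 3 CPM.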
